A study of Mus musculus with 696 samples.

Results

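The interferon response and antigen presentation genes are a set of 39 genes chosen by symbol. They cover the class I major histocompatibility (MHC) molecules, the proteins that load peptides onto them, the immunoproteasome, the factors that transmit interferon signals, the antiviral genes that interferons switch on and the interferon receptors. Of the 39 symbols, 34 had a row among the 15652 genes of the count table, and 29 of those passed the filter on low counts and were tested. Ifit2, Ifit3, Oasl1, Ifitm1 and Gbp3 were not analysed here. Usp18, Ifit1, Oas1a, Rsad2 and Bst2 had a row but too few reads for a test.

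The study followed the progeny of Lrig1-expressing stem cells of the upper hair follicle (Lrig1 GL cells) through a first and a second wound in mouse tail skin, asking whether the first wound leaves a lasting mark on them. All mice were females of a mixed CBA and C57BL/6 background that carried Lrig1-EGFP-ires-CreERT2 and Rosa26-fl/STOP/fl-tdTomato, and all had received a single topical dose of 4-hydroxytamoxifen on the tail as young adults, 1 week before the first wounding time. The transgene therefore marks cells that expressed Lrig1 at that moment and all their descendants, and only tdTomato+ cells were sorted. Cells came from unwounded skin (0w), from skin 1 week (1w pw1) or 8 weeks (8w pw1) past a full-thickness punch wound, and from skin that had received another, overlapping punch at 8 weeks and was taken 1 week later (1w pw2, labelled week 9). These are the 4 time points. Each time point had 2 plates of single cells prepared by Smart-seq2, a method that reads whole transcripts without molecular identifiers. The sorted zone held the wound bed together with hair follicles away from it, and the labels do not say which mice each plate came from. The plates of each time point also carried a set letter of their own, so plate set and time point cannot be told apart. Mice of the later time points were also older, and no plate held unwounded skin of that age. Animal age and time after wounding therefore cannot be told apart either.

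After 2 cells rich in Ptprc, the pan-leukocyte gene, were left out, 694 of 696 cells remained, 79 to 91 on each of the 8 plates. Summed counts ranged from 12293182 to 19760820 per plate. Levels are given as CPM, a plate's summed counts scaled to its library size with TMM factors, and errors are SD over the 2 plates. Sums of marker lists, the levels of Pecam1 and Kdr, and values per cell or cluster, are CPM without TMM factors. Sums per plate cannot separate fewer cells expressing a gene from less RNA of it in each cell. The keratinocyte markers fit the labelled tissue, since all 11 were found on every plate and summed to between 13556 and 49553 CPM. The 9 immune markers summed to 3.0 to 17.5 CPM per plate, and the 5 fibroblast markers to 0.506 to 29.5 CPM. Among the 2 endothelial markers with a row, Pecam1 was at 94.5 to 1781 CPM while Kdr was at 0 on 6 plates and at most 0.258 CPM on the others.

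Interferons are secreted proteins that warn cells of infection or tissue damage. Type I interferons bind Ifnar1 and Ifnar2, and type II interferon binds Ifngr1 and Ifngr2. Signals of the type I receptor reach a complex that includes Stat2 and Irf9 and acts on a DNA element called the interferon-stimulated response element (ISRE), whereas those of the type II receptor act on gamma-activated sites (GAS). Class I molecules, which nearly all cells carry, display peptides that the immunoproteasome cuts and the Tap1 and Tap2 transporter brings into the endoplasmic reticulum. In skin, hair follicle stem cells in the resting phase are known for low class I display.

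The promoters of the members show which genes carry the element that type I interferon signals act on, and they are given here because members that carry it stood at both ends of the range of levels. The RefSeq annotation on GRCm38.p6 gave 33 promoters for 30 of the 34 genes, each covering 250 bases before to 50 bases after the start site. The ISRE was searched as GAAA, any 2 bases and GAAA on both strands and was found in 14 of the 33 promoters, against 3.44% of 32851 promoters of all genes. The letters TTCNNNGAA (GAS), which read the same on both strands in their fixed letters, were found in 9 of the 33, against 8.30% of all. An ISRE match overlapped a GAS match in 2 places among the members. The ISRE letters were in 7 of 8 promoters of the sensors and effectors, in both Ifitm promoters and in all 3 GTPase promoters. They were in none of the promoters of the peptide loading genes (2 promoters), the immunoproteasome (3) or the receptors (4). A match is only a run of letters, and its absence says nothing about binding.

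Stretches of 80 bases before the start site are printed 5′ to 3′ on the gene's strand, with the ISRE letters in capitals, for 3 classical targets that were nearly silent and for 4 members with a higher level on at least 1 plate. Runs with TTTC are the same element read on the other strand.
Isg15, chr4:156200846-156200925, minus strand: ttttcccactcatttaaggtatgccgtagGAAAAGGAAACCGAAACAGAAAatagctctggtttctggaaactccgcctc
Ifit1, chr19:34640759-34640838, plus strand: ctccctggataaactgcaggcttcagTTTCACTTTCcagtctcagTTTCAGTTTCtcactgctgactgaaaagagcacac
Rsad2, chr12:26456528-26456607, minus strand: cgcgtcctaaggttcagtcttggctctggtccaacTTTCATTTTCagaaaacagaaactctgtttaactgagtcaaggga
B2m, chr2:122147513-122147592, plus strand: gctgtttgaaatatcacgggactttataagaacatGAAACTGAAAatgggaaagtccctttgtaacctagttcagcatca
Ifitm2, chr7:140955963-140956042, minus strand: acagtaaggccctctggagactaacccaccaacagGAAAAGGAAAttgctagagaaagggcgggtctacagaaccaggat
Irgm1, chr11:48871421-48871500, minus strand: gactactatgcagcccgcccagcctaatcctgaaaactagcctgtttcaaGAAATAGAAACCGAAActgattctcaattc
Gbp2, chr3:142620569-142620648, plus strand: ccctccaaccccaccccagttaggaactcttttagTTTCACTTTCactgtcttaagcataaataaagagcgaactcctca
Ifitm3, an abundant member whose promoter is not printed, also holds 2 matches. Isg15 holds 3 overlapping ISRE matches, Ifit1 holds 2 apart from each other, Irgm1 holds 2 that overlap, and the others hold 1.

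Lrig1 GL cells expressed the class I display genes at every time point. The classical type I interferon targets were close to silent, apart from the RNA sensors Ifih1 and Ddx58. Per kilobase of exon, the mean level over the 8 plates was highest for B2m at 788 CPM per kb, followed by Ifitm2 at 261, Ifitm3 at 112, H2-K1 at 58.1 and H2-D1 at 33.6. At the other end, Ifit1 was at 0.0242, Rsad2 at 0.0261 and Usp18 at 0.0365 CPM per kb. Between these extremes stood Ifi27 at 23.3, Ifngr1 at 19.5 and Tapbp at 9.40 CPM per kb. The plot of all members by plate shows these 2 ends of the range.

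**Figure D1:**
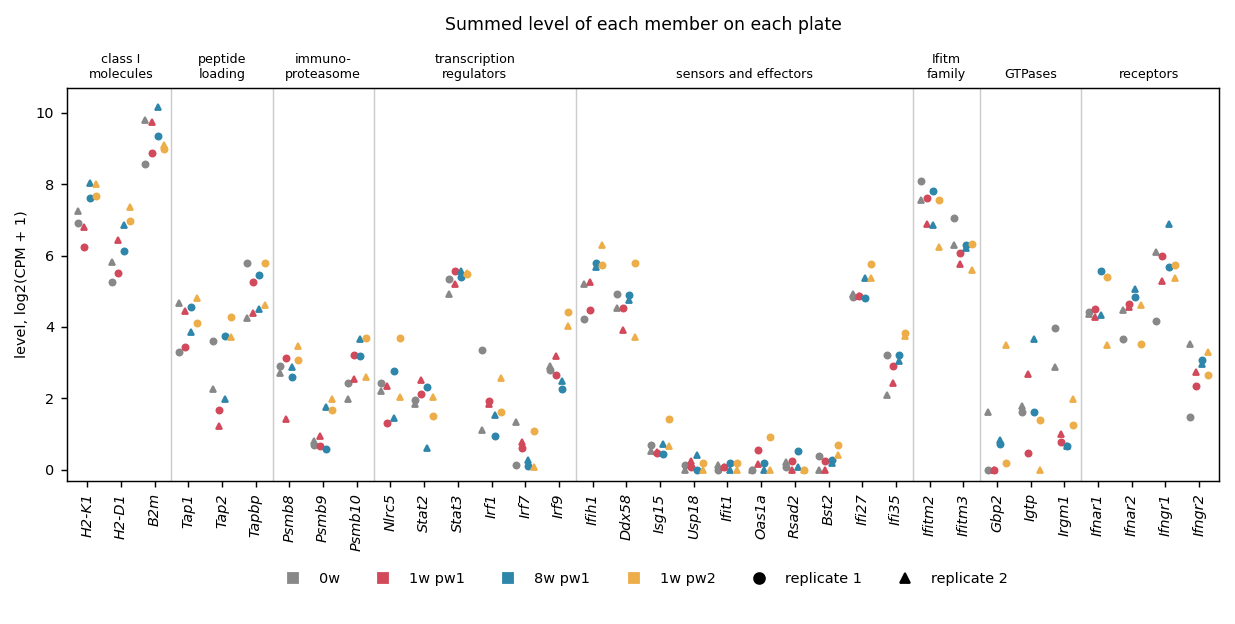
Each point is the summed level of a member on 1 plate, as log2(CPM + 1), with colour for the time point and shape for the replicate, and genes are grouped by role. B2m, Ifitm2 and H2-K1 stand at the top, while Usp18, Ifit1, Oas1a and Rsad2 lie below 1 CPM on all 8 plates.

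No member was called in any comparison. A call required an edgeR quasi-likelihood adjusted p under 0.05 and a fold change above 2. Between 1w pw1 and 0w, 0 of 29 members and 0.528% of all genes were called. Between 8w pw1 and 0w, both counts were 0 (0% of all genes). The share of all genes called was 0.267% for 1w pw2 against 0w, 0.116% for 8w pw1 against 1w pw1, 0.00723% for 1w pw2 against 8w pw1 and 0% for 1w pw2 against 1w pw1, with 0 members in each. Subtracting the 0w to 1w pw1 change (first healing) from that of 8w pw1 to 1w pw2 (second healing) gave the difference between the healings, in which 0% of all genes and 0 members were called. The joint test for a change at any time point called 0.304% of genes and 0 members. At an unadjusted edgeR p under 0.05, 1 to 4 of the 29 members passed in each of these tests, where 5.26% to 12.5% of all genes did. DESeq2, run as an alternative, called 1 member in 4 of the 8 tests, as given with Irgm1 below.

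The members' median log2 fold change was -0.12 for 1w pw1 against 0w, beside -0.04 over all genes tested. It was 0.0052 without 0w replicate 2 and -0.36 with every cell scaled equally. The median was 0.10 for 8w pw1 against 0w (all genes 0.07), or 0 without 8w pw1 replicate 1, and 0.38 for 1w pw2 against 0w (all genes 0.05). Against 1w pw1, it was 0.41 at 8w pw1 (all genes 0.10) and 0.54 at 1w pw2 (all genes 0.09). It was 0.30 for 1w pw2 against 8w pw1, where the median of all genes was 0.01, and 0.56 for the difference between the healings (all genes 0.04). These comparisons share plates, so their medians are not independent of each other. Of the 29 members, 24 had a higher fitted level at 8w pw1 than at 1w pw1, and 22 at 1w pw2 than at 1w pw1. The corresponding shares over all genes were 53.9% and 54.3%.

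Counts of members whose plates did not overlap between 2 time points are read against the share of all genes tested that do the same. Between 1w pw2 and 1w pw1, 11 members had both 1w pw2 plates higher (19.8% of all genes) and 1 member, Stat2, had both lower (17.4%). Between 1w pw2 and 0w, 11 were higher (21.4% of all genes) and 3 lower (19.4%). Between 8w pw1 and 1w pw1, 9 were higher (21.6%) and 4 lower (20.3%). Between 1w pw1 and 0w, 3 were higher (23% of all genes) and 5 lower (22.1%). For 8w pw1 against 0w the counts were 6 (17.8%) and 2 (15.5%), and for 1w pw2 against 8w pw1 they were 6 (16.9%) and 3 (16.3%). The 11 of 29 at 1w pw2 are thus more than the background share, and no test of the list was made.

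**Figure D2:**
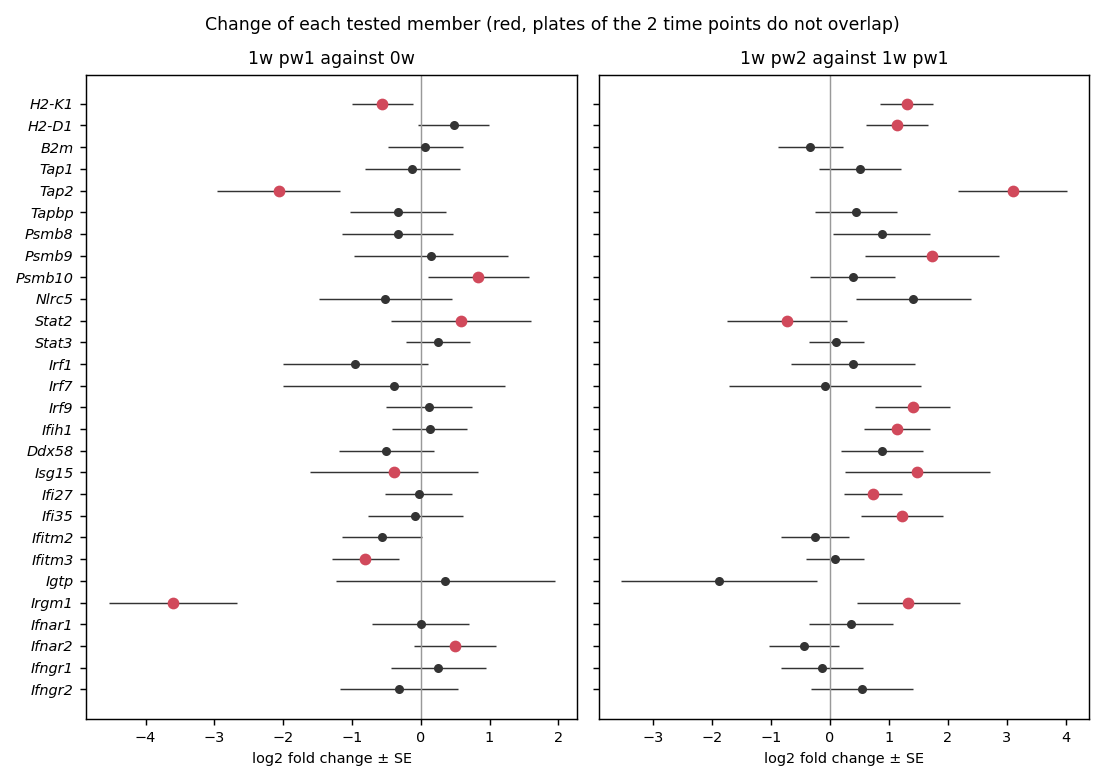
Points are log2 fold changes of 28 tested members with SE derived from the edgeR F statistic. The left side is 1w pw1 against 0w and the right side 1w pw2 against 1w pw1, and red marks members whose plates do not overlap. Irgm1 and Tap2 lie lowest on the left, and Tap2 lies highest on the right. Gbp2 is left out because both 1w pw1 plates are at 0.

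The class I heavy chains had their lowest H2-K1 level at 1w pw1 and their highest H2-D1 level at 1w pw2. H2-K1 (chr17:33996017-34000347, minus strand) encodes a heavy chain that holds the displayed peptide. It was at 120 and 152 CPM at 0w, 74.7 and 110 at 1w pw1, 195 and 259 at 8w pw1, and 201 and 254 at 1w pw2. The 1w pw1 plates were below all other plates, and those of 8w pw1 and 1w pw2 were above the rest and overlapped each other. H2-K1 was 1.30 ± 0.45 (log2, SE) higher at 1w pw2 than at 1w pw1 (edgeR p = 0.0164, adjusted p = 0.786) and 1.30 ± 0.45 higher at 8w pw1 than at 1w pw1 (edgeR adjusted p = 0.330). The difference of 1w pw1 from 0w was -0.56 ± 0.45 (edgeR adjusted p = 0.714). None of these passed the adjusted threshold.

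H2-D1 (chr17:35262730-35267499, plus strand), the other classical heavy chain, was at 37.6 and 56 CPM at 0w, 44.8 and 85.5 at 1w pw1, 68.4 and 116 at 8w pw1, and 124 and 162 at 1w pw2. Its 2 highest plates were those of 1w pw2, and the 2 plates of 0w were below those of 8w pw1. It was 1.61 ± 0.53 (log2, SE) higher at 1w pw2 than at 0w (edgeR p = 0.0126, adjusted p = 0.263). H2-K1, H2-D1 and other class I genes share sequence, so the way Salmon divides reads between them makes each separate value uncertain.

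B2m (chr2:122147686-122153083, plus strand), the light chain shared by all class I molecules, had its highest mean at 8w pw1 and its lowest at 1w pw2. It was at 375 and 885 CPM at 0w, 464 and 854 at 1w pw1, 650 and 1143 at 8w pw1, and 508 and 542 at 1w pw2. The replicates differed by over 1.5 times at every time point but 1w pw2, and the time points overlapped except that both 8w pw1 plates were above both 1w pw2 plates. B2m was -0.77 ± 0.55 (log2, SE) at 1w pw2 against 8w pw1 (edgeR adjusted p = 0.766). For H2-K1, H2-D1 and B2m alike, replicate 2 was the higher plate at all 4 time points.

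**Figure D3:**
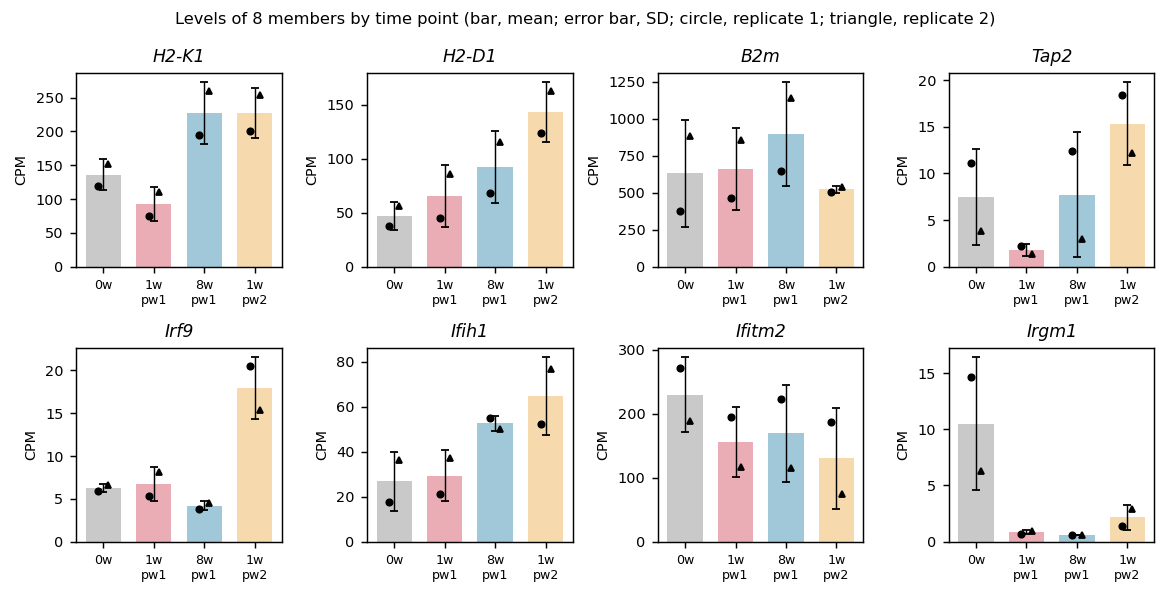
Bars are mean CPM of 2 plates, error bars are SD, circles are replicate 1 and triangles replicate 2, for 8 members at the 4 time points. H2-K1 is lowest at 1w pw1, Irf9 and H2-D1 are highest at 1w pw2, and Irgm1 is highest at 0w.

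Among the peptide loading genes, Tap2 varied most between time points. Tap2 (chr17:34203527-34216321, plus strand) is one chain of the peptide transporter. It was at 11.1 and 3.82 CPM at 0w, 2.22 and 1.34 at 1w pw1, 12.4 and 2.98 at 8w pw1, and 18.4 and 12.2 at 1w pw2. The 1w pw1 plates were the lowest of all, and replicate 1 was the higher plate at every time point. Tap2 was 3.10 ± 0.92 (log2, SE) higher at 1w pw2 than at 1w pw1 (edgeR p = 0.00722, adjusted p = 0.786). A read of Tap2 was found in 13.9% to 14.6% of cells on the 1w pw1 plates and in 32.2% to 43.0% on the 1w pw2 plates, and after thinning to 20000 counts per cell in 3.04% to 3.06% and 16.7% to 19.5%. A single cell held 50.9% of the Tap2 counts of 8w pw1 replicate 1.

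Tap1 (chr17:34187553-34197225, plus strand), the partner chain, was at 8.75 and 24.5 CPM at 0w, 9.79 and 20.8 at 1w pw1, 22.4 and 13.4 at 8w pw1, and 16.4 and 27.1 at 1w pw2. The time points overlapped throughout, and Tap1 differed by 0.51 ± 0.69 (log2, SE) between 1w pw2 and 1w pw1 (edgeR adjusted p = 0.909). Tapbp, which bridges the transporter and the class I molecule, was higher on replicate 1 at all 4 time points, at 37.5 to 54.5 CPM against 18.1 to 23.7.

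The immunoproteasome genes were lowly expressed. Psmb8 (chr17:34197721-34201454, plus strand), a catalytic subunit, was at 6.53 and 5.49 CPM at 0w, 7.83 and 1.70 at 1w pw1, 5.03 and 6.42 at 8w pw1, and 7.47 and 9.99 at 1w pw2. Both 1w pw2 plates were above those of 0w and 8w pw1, but only replicate 2 of 1w pw2 was also above replicate 1 of 1w pw1. The difference of 1w pw2 from 0w was 0.54 ± 0.81 (log2, SE; edgeR adjusted p = 0.843). Psmb10 was at 2.96 to 4.35 CPM at 0w and at 8.05 to 11.8 CPM at 8w pw1, a difference of 1.44 ± 0.74 (log2, SE) that did not pass the test (edgeR adjusted p = 0.787). Psmb9 stayed at or below 2.93 CPM. The standard catalytic subunits that these replace, Psmb5, Psmb6 and Psmb7, were at 25.1 to 58.1, 48.4 to 102 and 11 to 50.7 CPM.

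Of the transcription regulators, Irf9 had the clearest pattern. Irf9 (chr14:55603571-55610030, plus strand), the DNA-binding part of the type I complex, was at 5.90 and 6.57 CPM at 0w, 5.35 and 8.19 at 1w pw1, 3.81 and 4.57 at 8w pw1, and 20.5 and 15.4 at 1w pw2. Both 1w pw2 plates were above all others, and both 8w pw1 plates below all others. Within the clusters of cells described below, Irf9 at 8w pw1 was higher than at 1w pw1 in 5 of 6 clusters, where the median over all 15652 genes was 2. Against 0w, Irf9 at 8w pw1 was higher in 4 of 9 clusters and lower in 5, and the median over all genes was 4 higher. Irf9 at 1w pw2 exceeded that at 8w pw1 in 5 of 8 clusters. Irf9 was 2.09 ± 0.65 (log2, SE) higher at 1w pw2 than at 8w pw1 (edgeR p = 0.00880, adjusted p = 0.452) and 1.52 ± 0.63 higher than at 0w (edgeR adjusted p = 0.363). Its change in the second healing exceeded that in the first by 1.98 ± 0.89 (log2, SE; edgeR adjusted p = 0.941).

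Stat2, its partner in the complex, did not share this pattern. It was at 1.82 and 3.09 CPM at 1w pw2, below both 1w pw1 plates at 3.39 and 4.74 CPM. Stat3 (chr11:100885098-100939540, minus strand), which mainly carries signals of the interleukin-6 family, was steady, with 39.5 and 29.5 CPM at 0w, 46.1 and 36.0 at 1w pw1, 41.3 and 46.2 at 8w pw1, and 43.5 and 44.9 at 1w pw2. Stat3 was found in 50% to 81% of the cells of a plate, the widest coverage among the regulators. Irf1 (chr11:53770014-53778374, plus strand), an early factor of the type II response, was at 9.22 and 1.18 CPM at 0w, 2.81 and 2.57 at 1w pw1, 0.934 and 1.92 at 8w pw1, and 2.10 and 4.94 at 1w pw2. On 0w replicate 1, its highest plate, 1 cell held 53.9% of the Irf1 counts, and 2.53% to 9.09% of cells on a plate had a read of Irf1.

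Irf7 (chr7:141262706-141266481, minus strand), the factor that amplifies the type I response, was at 0.104 and 1.51 CPM at 0w, 0.522 and 0.702 at 1w pw1, 0.0719 and 0.199 at 8w pw1, and 1.12 and 0.0543 at 1w pw2. It was found in 17 of 694 cells. Nlrc5, the activator of class I genes, was at 1.5 to 11.9 CPM, and its highest plate was 1w pw2 replicate 1.

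The RNA sensors were the only members of the type I target list found in more than 5% of all cells. Ifih1, which detects long double-stranded RNA, was at 17.5 and 36.1 CPM at 0w, 21.3 and 37.2 at 1w pw1, 54.8 and 50.3 at 8w pw1, and 52.2 and 76.8 at 1w pw2. All 4 plates from 8 weeks onwards were above the 4 earlier ones, and the difference of 1w pw2 from 0w was 1.27 ± 0.55 (log2, SE; edgeR p = 0.0455, adjusted p = 0.389). A single cell held 55.7% of the Ifih1 counts of 8w pw1 replicate 1, 59.1% of those of 1w pw2 replicate 2, 45.3% of those of 1w pw2 replicate 1, 37.3% of those of 8w pw1 replicate 2, and 19.8% to 43.6% of those of the 4 earlier plates. Within the clusters described below, Ifih1 was higher at 8w pw1 than at 0w in 4 of 9 and than at 1w pw1 in 3 of 6. Ddx58, which detects short RNA ends, was at 12.2 to 54.8 CPM, with its lowest and its highest value both at 1w pw2, and 1 cell held 84.1% of the Ddx58 counts of the highest plate.

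Isg15 (chr4:156199424-156200818, minus strand), the ubiquitin-like protein that interferons induce most widely, was at 0.622 and 0.431 CPM at 0w, 0.391 and 0.409 at 1w pw1, 0.359 and 0.662 at 8w pw1, and 1.68 and 0.597 at 1w pw2. No plate reached 2 CPM, although its promoter holds the 3 ISRE matches shown above. Isg15 had a read in 34 of 694 cells (4.90%, exact 95% interval 3.42% to 6.78%). Bst2 (chr8:71534255-71537456, minus strand), which tethers viruses to the cell surface, was at 0.311 and 0 CPM at 0w, 0.196 and 0 at 1w pw1, 0.216 and 0.132 at 8w pw1, and 0.629 and 0.326 at 1w pw2. It was found in 12 of 694 cells (1.73%). Ifit1 and Oas1a were found in 7 and 5 cells, Rsad2 in 12 and Usp18 in 5. Only counting error enters these intervals, and reads that carry no molecular identifier are not independent.

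Detection of these genes in the same cell was rare. Of the 12 listed type I targets, 9 had a row, and 2 of 694 cells (0.288%, exact 95% interval 0.0349% to 1.04%) had a read of 4 or more of them. 1 cell each belonged to 8w pw1 and to 1w pw2, while none was found at 0w (0 of 179, with an exact 95% upper bound of 2.04%) or at 1w pw1 (0 of 168, upper bound 2.17%). With the sensors Ifih1 and Ddx58 set aside, 610 of 694 cells had a read of none of the 7 remaining genes, 79 of 1 gene and 4 of 2 genes. A single cell, on 1w pw2 replicate 1, had reads of 5 of the 7, with 13.35 estimated counts of Oas1a and 1 or 2 each of Isg15, Usp18, Bst2 and Irf7. That cell also held Ifitm3 at 2616 CPM, Irf9 and Ifi35 at 243 CPM each, and 0 counts of Ptprc, at a depth of 139840 counts.

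The interferon-inducible genes Ifi27 and Ifi35 had their highest mean at 1w pw2. Ifi27 was at 27.6 and 29.5 CPM at 0w, 27.9 and 28.0 at 1w pw1, 27.2 and 40.3 at 8w pw1, and 52.9 and 40.2 at 1w pw2. Ifi35 was at 8.29 and 3.28 CPM at 0w, 6.52 and 4.44 at 1w pw1, 8.27 and 7.28 at 8w pw1, and 13.1 and 12.4 at 1w pw2. For Ifi27, replicate 2 of 8w pw1 lay within the range of the 1w pw2 plates. The 1w pw2 plates of Ifi35 were above all others, with a difference of 1.22 ± 0.70 (log2, SE) from 1w pw1 that did not pass the test (edgeR adjusted p = 0.793).

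The Ifitm family, membrane proteins that block viral entry and are also found on stem cells, was abundant and higher on replicate 1 than on replicate 2 at every time point. Ifitm3 (chr7:141009586-141010770, minus strand) was at 131 and 77.3 CPM at 0w, 66.0 and 53.3 at 1w pw1, 78.3 and 72.7 at 8w pw1, and 79.6 and 47.5 at 1w pw2. Both 0w plates were above both 1w pw1 plates (-0.80 ± 0.49 for 1w pw1 against 0w, log2, SE; edgeR adjusted p = 0.604). Ifitm2 was at 271 and 188 CPM at 0w and at 186 and 74.9 CPM at 1w pw2 (-0.81 ± 0.58, log2, SE; edgeR adjusted p = 0.631). The 2 genes are close paralogs, and the division of reads between them is uncertain.

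The GTPases, which act against intracellular pathogens and are induced by type II interferon, rested on few cells. Irgm1 (chr11:48861968-48871683, minus strand) was at 14.7 and 6.30 CPM at 0w, 0.718 and 0.994 at 1w pw1, 0.575 and 0.596 at 8w pw1, and 1.40 and 2.93 at 1w pw2. Both 0w plates were above all others. The difference was -3.60 ± 0.94 (log2, SE) at 1w pw1 (edgeR p = 0.00324, adjusted p = 0.147) and -4.14 ± 0.97 at 8w pw1 (edgeR adjusted p = 0.546). With DESeq2, Irgm1 passed in both (adjusted p = 0.00419 and 0.00279), where it called 5.43% and 1.26% of the genes given an adjusted p. It also passed in the difference between the healings (DESeq2 log2 difference 5.5, adjusted p = 0.0112, with 0.658% of genes called). In the joint test DESeq2 called 1 member and 6.61% of genes. Of the Irgm1 counts at 0w, 83.4% on replicate 1 and 40.2% on replicate 2 came from 1 cell, and the share of cells with a read was 7.95% and 11% at 0w, 5.62% and 7.59% at 1w pw1, and 3.53% and 2.33% at 8w pw1. Thinned to 20000 counts per cell, the share was 5.20% at 0w, 1.17% at 1w pw1 and 1.07% at 8w pw1.

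Gbp2 (chr3:142620602-142638008, plus strand) was at 0 and 2.10 CPM at 0w, 0 on both 1w pw1 plates, 0.647 and 0.795 at 8w pw1, and 0.140 and 10.3 at 1w pw2. Taking 3 counts over both 1w pw1 plates as the floor, its mean at 1w pw2 was at least 56.5-fold higher (edgeR p = 0.0157, adjusted p = 0.786). This value belongs to 3 cells, and 1 of them held 91.1% of the Gbp2 counts of 1w pw2 replicate 2. Igtp was at 0 to 11.6 CPM, and a single cell held 51.7% to 100% of its counts on each plate where it was found.

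The receptors were present at every time point. Ifngr1 (chr10:19591949-19610229, plus strand), the ligand-binding chain for type II interferon, was at 16.9 and 67.8 CPM at 0w, 63.0 and 38.2 at 1w pw1, 49.7 and 116 at 8w pw1, and 51.9 and 40.3 at 1w pw2. All 6 pairs of time points overlapped, and the difference of 8w pw1 from 0w was 0.97 ± 0.70 (log2, SE; edgeR adjusted p = 0.862). On 8w pw1 replicate 2, the highest plate, 1 cell held 73.9% of the Ifngr1 counts. Ifngr2, its partner, was at 1.81 to 10.4 CPM. The type I receptor chains Ifnar1 and Ifnar2 were at 10.4 to 46.0 and 10.5 to 32.2 CPM, and Ifnar2 was lower at 1w pw2 than at 8w pw1 on both plates (-0.82 ± 0.60, log2, SE; edgeR adjusted p = 0.771).

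No other gene of the pathway was called. Of 79 listed, 65 had a row and 59 were tested, and 0 were called by edgeR in any comparison, with 1 to 8 at an unadjusted p under 0.05. Their median log2 fold change was 0.29 for 1w pw1 against 0w, where that of the members was -0.12, and -0.04 for the difference between the healings, where the members had 0.56. In each other comparison between time points both medians were positive. They were 0.44 beside 0.38 in the members for 1w pw2 against 0w, and 0.02 beside 0.41 for 8w pw1 against 1w pw1. Psme1, a proteasome activator that interferon induces, was at 78.9 and 100.5 CPM at 1w pw1 against 30.4 and 35.0 at 0w (1.46 ± 0.49, log2, SE; edgeR adjusted p = 0.250). Psme2, also on the list, overlapped between these time points, at 28.1 and 39.0 CPM at 1w pw1 and 25.7 and 37.0 at 0w. H2-Ab1, a class II chain of antigen-presenting cells, was at 3.07 and 15 CPM at 1w pw2 against 0.104 and 0.377 at 0w (5.20 ± 1.5, log2, SE; edgeR adjusted p = 0.196). The immune markers summed to 9.35 to 17.5 CPM at 1w pw2 and 5.31 to 7.99 at 0w, and Cd74, the class II chaperone, was at 3.96 CPM on 1w pw2 replicate 2. Their part in the H2-Ab1 value was not tested. With every cell that had any Ptprc count left out, the H2-K1 difference between 1w pw2 and 1w pw1 was 1.28 (log2), beside 1.30 with them.

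Across cells within a plate, H2-K1 went together most with B2m and with H2-D1, followed by the Ifitm pair. Among the 18 members found in at least 20% of cells, Spearman's rho averaged over the 8 plates was 0.48 for H2-K1 and B2m, 0.46 for H2-K1 and H2-D1, 0.37 for Ifitm2 and Ifitm3, and 0.35 for H2-D1 and B2m. Pairs across roles such as B2m and Psmb8 (0.26) or B2m and Tap1 (0.26) came next, whereas Psmb8 and Psmb10, both of the immunoproteasome, were at 0.054. The median over 153 pairs was 0.086. B2m and Ifitm3 had the lowest value, -0.13. Points of a plate share a library, and paralogs share reads, so these values are descriptions with no test. The same genes had a rho with the cell's total count between -0.088 (Ifitm2) and 0.21 (Ifngr1), and the part of depth in the pair values was not tested.

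**Figure D4:**
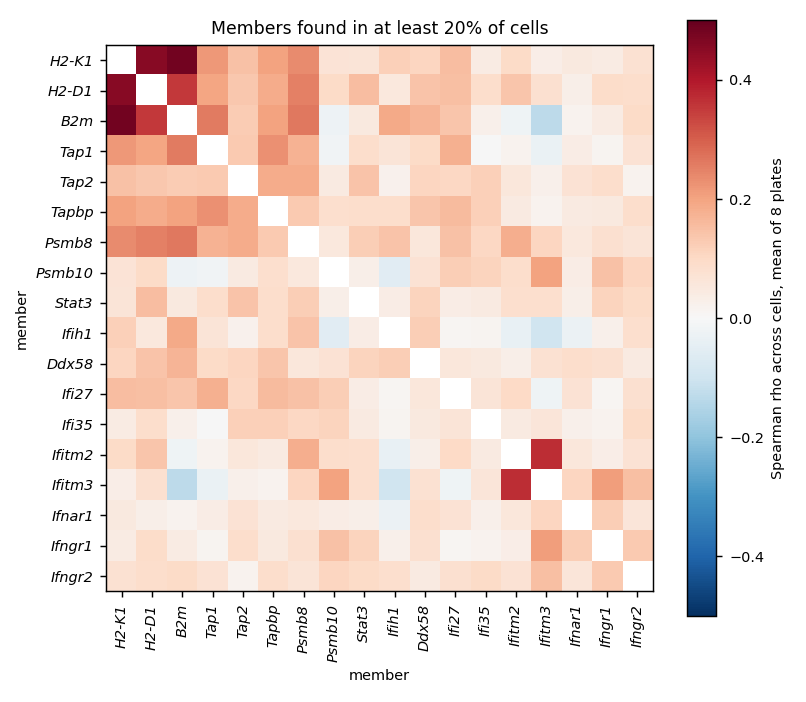
Colours give Spearman's rho between 2 members across the cells of a plate, averaged over 8 plates, for 18 members found in at least 20% of cells. The class I molecules form the darkest block, with 0.35 to 0.48, and Ifitm2 and Ifitm3 form another at 0.37.

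The mean class I level differed between clusters of cells, with wide ranges over plates. Clustering without the members and the other pathway genes gave 13 clusters, which carry numbers and are described here with no test. Only clusters 3, 6 and 8 are also named, each from at least 3 fixed markers of a list raised in it. Clusters 1 (differentiated epidermis), 4 (upper follicle duct), 5 (sebaceous gland), 10 (bulge), 12 (basal epidermis) and 13 (cycling) reached that number too but keep their numbers. H2-K1, as a mean of plates with at least 5 cells of the cluster, was highest in cluster 6, upper follicle duct-like with Krt79, Gata6, Cst6, Klk10, Defb6 and Krt17, at 415 CPM (202 to 755 over 6 plates), and in cluster 7, led by Cish and Klk8, at 396 CPM (166 to 777 over 3 plates). Its lowest mean was in cluster 3 at 66.0 CPM (12 to 157 over 4 plates), a bulge-like cluster with Cd34, Lgr5, Krt15 and Lhx2, the lower stem cell compartment of the follicle. Cluster 1, led by Krt2, Wfdc17 and Serpinb12, had 69.9 CPM (23.3 to 146), and cluster 8, wound-activated-like with Krt6a, Krt6b, Krt16, S100a8, S100a9 and Sprr1b, had 79.3 CPM (32.3 to 159), so the order of these 3 is within their spread. Cluster 10, with the bulge markers Krt15, Lhx2 and Sox9 raised, had H2-K1 at 92.1 CPM (9.99 to 156 over 4 plates). Cluster 3 also had Itgb4, Col17a1 and Thbs1 of the basal epidermis list raised. A read of H2-K1 was found in 48.4% of the cells of cluster 3, 66.7% of cluster 10 and 92.7% of cluster 6. Nlrc5 had a read in 27.3% of cluster 6 and in 0% of clusters 3, 5 and 13, of which clusters 5 and 13 held H2-K1 at 128 and 249 CPM.

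Ifitm3 was high in other clusters than H2-K1. Ifitm3 was at 257 CPM in cluster 2, led by Gm13306 and Ntrk2, at 297 CPM in cluster 12, led by Slc2a1 and Phldb2 (69 to 656 over 3 plates), and at 144 CPM in the wound-activated-like cluster 8. It had a read in 1.82% of cluster 6 and 2.38% of cluster 10, while it had a read in 89.8% of cluster 8. Ifitm2 was spread more evenly, with a read in 50.9% of cluster 6 and in 65.2% to 98.0% of each other cluster. The highest mean of Ifih1, 318 CPM in cluster 6, came with plates from 5.56 to 1266 CPM and a median cell at 6.21 CPM. B2m ranged from 107 CPM in cluster 1 to 1847 CPM in cluster 6.

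The clusters took different shares of each time point. Cluster 1 took 20.8% of the cells of 1w pw1 and 20.5% of those of 1w pw2, but 3.91% of the 0w cells and 5.26% of the 8w pw1 cells. The wound-activated-like cluster 8 took 22% of the 1w pw1 cells and 6.82% of the 1w pw2 cells, and no cell of the other two time points. Cluster 7 held 18.2% of 1w pw2 cells, and 29 of its 32 cells there came from replicate 1. Clusters 1 and 8, both low in H2-K1, were thus common at 1w pw1, and the part of these shares in the plate sums was not tested. Within clusters, H2-K1 was higher at 1w pw2 than at 1w pw1 in all 8 clusters that had at least 5 cells at both, as a mean over cells. H2-K1 was at 29.8 CPM per cell at 1w pw1 and 169 at 1w pw2 in cluster 1, and at 44.5 and 167 in cluster 8. In cluster 6 it was at 274 and 625 CPM. H2-D1 and Irf9 were also higher at 1w pw2 in 8 of these 8 clusters, Tap2 in 7, Ifitm3 in 5, and B2m, Tapbp, Ifih1, Ifitm2 and Stat3 in 4 each. Of all 15652 genes, 1.87% were higher in all 8, and of the 7866 found in at least 20% of cells 3.33% were, with a median of 5 clusters. Against 0w, H2-K1 at 1w pw1 was higher in 3 of 5 clusters and lower in 2. Cells of a cluster at a time point come from 2 plates at most, so these are values of these libraries.

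**Figure D5:**
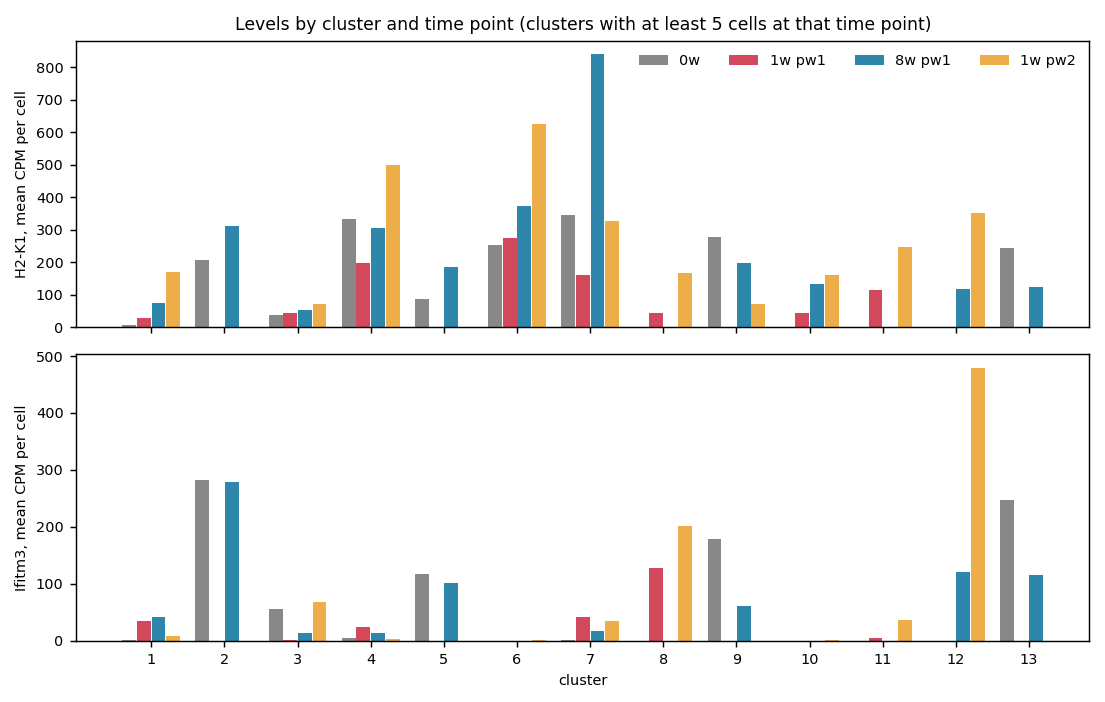
Bars give the mean CPM per cell of H2-K1 (top) and Ifitm3 (bottom) in each cluster and time point with at least 5 cells. In every cluster that holds both, the 1w pw2 bar of H2-K1 is above the 1w pw1 bar, while Ifitm3 is high in clusters 2, 8 and 12 and close to 0 in clusters 6 and 10.

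The genes whose plate levels were most like those of H2-K1 over the 8 plates were Acadvl (Pearson r of log2 CPM 0.956), Eno1b (0.946) and Stk25 (0.945). For Isg15 they were Ldhd (0.963), Zc3hc1 (0.953) and Rbfa (0.952). These are the highest of 13831 genes compared over 8 plates and carry no test. The Isg15 levels rest on 83 counts over all 694 cells, with 1.68 CPM on 1w pw2 replicate 1 and at most 0.662 CPM on every other plate.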

How the data were processed

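Single cells were sorted into plates and sequenced with Smart-seq2. The authors deposited expected counts per gene and cell from Salmon 0.13.1 on an Ensembl annotation of GRCm38 (mm10), without normalization (96.6% of values whole). Every cell held at least 1000 genes, the study's own minimum. The members, gene lists and comparisons were chosen with earlier results of these data known. Cells with Ptprc above 1000 CPM were left out, counts were summed per plate and rounded, and the 8 plates were fitted together with edgeR 4.0.16 in R 4.3.3 (TMM scaling, default low count filter, quasi-likelihood test, 13832 genes, 4 residual degrees of freedom). A call needed a Benjamini-Hochberg adjusted p under 0.05 and a log2 fold change beyond 1. Each SE of a log2 fold change was derived as its absolute value divided by the square root of the edgeR F statistic. An exact permutation test of 2 plates against 2 cannot go below 0.333. The labels do not name the mice of each plate, so p-values measure the spread between plates. Named in full were H2-K1, B2m, Tap1, Psmb8, Stat3, Irf1, Irf7, Isg15, Bst2, Ifitm3, Gbp2 and Ifngr1, any member called, and per contrast the 3 highest and 3 lowest members with plates apart and an average log2 CPM of at least 2. Others are given by role, chosen after their values were seen. Thinned shares are expectations for 20000 counts drawn per cell, over only the cells that held at least that many. Clusters came from scanpy 1.11.5 (2000 variable genes, 20 components, 15 neighbours, resolution 1). Gene coordinates are from GENCODE on GRCm38. Alternatives were other scaling, DESeq2 1.42.0, filters, cell weights, cell filters, a replicate block and each plate left out. The tests were tried on simulated counts first. 1 gene of the pathway list is not reported here.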

Additional observations from a re-analysis of the deposited data

Results flagged for a closer look

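Irgm1 and Ifnar2 moved in opposite directions in the first and the second healing, with plates that did not overlap in either. Of all genes, 23% had plates apart and higher and 22.1% lower in the first healing, against 16.9% and 16.3% in the second. The share of all genes that did both in opposite directions was not counted. The 2 members were picked by this pattern, so their difference was tested on the values that picked them. Irgm1 was lower at 1w pw1 than at 0w and higher at 1w pw2 than at 8w pw1, a difference of 5.48 ± 1.29 (log2, SE; edgeR adjusted p = 0.664). Ifnar2 was higher and then lower, a difference of -1.31 ± 0.84 (edgeR adjusted p = 0.974), but its first change turned to -0.40 (log2) with every cell scaled equally, so the opposite directions depend on the scaling. Neither passed the edgeR test of the difference, and Irgm1 passed it with DESeq2 (adjusted p = 0.0112). The 2 cells left out for Ptprc held B2m above the mean of any plate, at 4322 CPM in the cell of 8w pw1 replicate 2 and 3200 CPM in that of 1w pw2 replicate 2. The latter also held Cd74 at 3424 CPM and H2-Aa at 3696 CPM, and it had 0 counts of Krt5 and Krt14.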

How the results depend on the processing

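edgeR called no member under any alternative run, and the unadjusted counts are given above. With DESeq2, 1 member was called in 1w pw1 against 0w, 1 in 8w pw1 against 0w, 1 in the difference between the healings and 1 in the joint test. In all, 130 of 134 counts of calls and 554 of 558 log2 fold changes of named members kept their side of the threshold and direction. Ifnar2 at 1w pw1 against 0w turned to -0.40 (log2) with every cell scaled equally, and the cause was not tested. The members' median log2 fold change was less firm, with 74 of 118 values within the spread. With every cell scaled equally it was -0.36 for 1w pw1, 0.19 for 8w pw1 and 0.30 for 1w pw2, each against 0w, then 0.12 (1w pw2 against 8w pw1), 0.70 (1w pw2 relative to 1w pw1) and 0.49 (healings). With no filter on low counts it was 0.19 (8w pw1 against 0w) and 0.50 (healings). Without any cell with a Ptprc count it was 0.39 (1w pw2 against 8w pw1), 0.66 (1w pw2 against 1w pw1) and 0.45 (healings).

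Leaving out 1 plate at a time gave medians of -0.23 to 0.0052 (1w pw1 against 0w), 0 to 0.26 (8w pw1 against 0w), 0.36 to 0.63 (1w pw2 against 0w), 0.21 to 0.43 (8w pw1 against 1w pw1), 0.23 to 0.45 (1w pw2 against 8w pw1), 0.50 to 0.90 (1w pw2 against 1w pw1) and 0.29 to 0.75 (healings). The sign was lost without 0w replicate 2 in the first and without 8w pw1 replicate 1 in the second. Among single genes, Ifitm2 at 1w pw2 against 0w ran from -1.63 (without 1w pw2 replicate 1) to -0.27 (without replicate 2), B2m at 1w pw2 against 8w pw1 from -1.12 to -0.25 (without 8w pw1 replicate 1 and 2), Ifnar2 there from -1.47 to -0.34 (without 1w pw2 replicate 2 and 1), H2-K1 at 1w pw1 against 0w from -0.87 to -0.31 (without 1w pw1 replicate 2 and 1), Ifitm3 there from -1.15 to -0.41 (without 0w replicate 2 and 1), and Tap2 there from -2.66 to -1.14, Irgm1 there from -4.10 to -2.90, Irgm1 at 8w pw1 against 0w from -4.66 to -3.48, its difference between the healings from 5.99 to 4.8 and Ifih1 at 1w pw2 against 0w from 1.86 to 0.80 (each without 0w replicate 2 and 1). A lone plate was assumed to vary like the other groups.

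Plates with the same number deviated together, with r between 0.17 and 0.25 in the 6 pairs of time points, but the labels do not say what the number marks. With a replicate block 0 members were called in each test, and the median became 0.34 (8w pw1 against 0w), 0.44 (1w pw2 against 0w), 0.23 (1w pw2 relative to 8w pw1) and 0.47 (healings).

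Cells that held at least 20000 counts were thinned to that depth. The median share of them with a read of a member was 8.5% for 0w and 7.56% for 1w pw1. It was 9.45% for 8w pw1 and 12.9% for 1w pw2. Shallower cells dropped out of all thinned shares, unevenly by time point, from 10 cells of 1w pw1 up to 18 of 8w pw1. At 5 or more type I targets in a cell the share at 8w pw1 was 0%. Depth limits the targets found in few cells, whose levels rest on single cells.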
